A study of Homo sapiens with 2 samples.

Results

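The 10 chemokine genes described here are CCL2, CCL7, CCL11, CCL8, CCL13 and CCL1, which lie together on chromosome 17, the CXCR3 ligand genes CXCL9, CXCL10 and CXCL11 on chromosome 4, and CCL20 on chromosome 2. HMGB2 regions were assigned to them by position alone, where a region overlapped 1 of 3 windows of hg19 around these genes: chr17:32575000-32695000 (120 kb), chr4:76915000-76965000 (50 kb) and chr2:228670000-228690000 (20 kb). Of the 3156 regions in the narrow and broad lists together, 2 lay in these windows, both of them narrow. The study mapped HMGB2, a chromatin protein of the high mobility group that bends the DNA it binds, by chromatin immunoprecipitation with a rabbit antibody and sequencing. It had 1 library from IMR90 cells, a line of human lung fibroblasts, made senescent with RAS, and 1 library from growing IMR90 control cells. Both were taken at day 2 from cultures in 2% oxygen, and 10 ng of precipitated DNA went into each. The authors deposited lists of regions for the senescent against the growing library, and the reading that these are higher in senescent cells rests on the names of the lists. Neither labels nor file headers name the promoter, vector or RAS form used, and no transcript level allowed the cell type to be checked by markers.

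Chemokines are small secreted proteins that steer white blood cells along concentration gradients through G protein-coupled receptors. The CC family has a pair of adjacent cysteines near the start of the mature protein, and in the CXC family another residue separates them. Senescent fibroblasts are known for secreting chemokines as part of the senescence-associated secretory phenotype, among them CCL2, which draws monocytes, whereas CXCL9, CXCL10 and CXCL11 are known as targets of interferon signalling that draw activated T cells.

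The sequences just upstream of these genes are shown first, because they are the part of each locus on which inflammatory transcription factors are known to act and because the deposited regions give positions only. They are the 250 bases before the annotated start from RefSeq on GRCh38.p14, a later build than that of the regions, and no position was converted between the builds. The RefSeq table held 8 of the 10 genes. CCL2 and CCL11 had no entry. CXCL9, on the minus strand, is read from chr4:76007510-76007759, CXCL10 from chr4:76023498-76023747 and CXCL11 from chr4:76036071-76036320, both also on the minus strand, and CCL20 from chr2:227813592-227813841 on the plus strand. Capitals mark matches to an NF-kB pattern (GGG, any 5 bases, CC), an interferon element (GAAA, any 2 bases, GAAA) and a TATA box (TATAAA), each searched on both strands. Matches of a motif that overlap run together in capitals.
CXCL9: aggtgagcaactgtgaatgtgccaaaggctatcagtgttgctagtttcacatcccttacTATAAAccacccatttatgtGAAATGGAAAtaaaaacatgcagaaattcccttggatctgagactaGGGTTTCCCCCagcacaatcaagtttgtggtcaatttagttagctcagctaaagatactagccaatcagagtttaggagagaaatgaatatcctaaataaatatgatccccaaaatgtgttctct
CXCL10: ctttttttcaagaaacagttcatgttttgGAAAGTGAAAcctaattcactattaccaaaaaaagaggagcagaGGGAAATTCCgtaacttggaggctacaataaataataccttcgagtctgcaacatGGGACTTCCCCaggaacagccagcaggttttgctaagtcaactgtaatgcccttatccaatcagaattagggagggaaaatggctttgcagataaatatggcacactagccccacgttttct
CXCL11: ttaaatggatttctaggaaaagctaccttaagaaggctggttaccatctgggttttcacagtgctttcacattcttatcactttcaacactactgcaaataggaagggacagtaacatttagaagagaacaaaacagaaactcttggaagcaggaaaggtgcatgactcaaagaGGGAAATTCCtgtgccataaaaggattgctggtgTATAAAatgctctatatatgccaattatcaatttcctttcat
CCL20: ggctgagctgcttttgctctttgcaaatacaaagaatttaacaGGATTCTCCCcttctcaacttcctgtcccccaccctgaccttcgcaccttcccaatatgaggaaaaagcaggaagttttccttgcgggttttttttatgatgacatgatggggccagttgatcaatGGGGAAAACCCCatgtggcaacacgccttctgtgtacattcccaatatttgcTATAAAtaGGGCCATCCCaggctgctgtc

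The 3 CXCR3 ligand genes and CCL20 all held the NF-kB pattern within this stretch. CXCL10, a ligand induced by interferon gamma in many cell types, had GGGAAATTCC at -177 to -168, counted in bases before its start, and GGGACTTCCC from -122 to -113. CXCL11 carried the same letters as the first of these, GGGAAATTCC, at -76 to -67. CXCL9, a ligand induced mainly by interferon gamma, held GGGTTTCCCC at -125 to -116. In CCL20, which attracts CCR6-bearing lymphocytes and dendritic cells, a run of overlapping matches spanned -81 to -70. The pattern is loose, and 53.7% of 27305 promoters of the same length held it, against 5 of the 8 genes here. Its presence alone thus does not set these genes apart from all promoters. The fifth gene was CCL1, the ligand of CCR8, with matches between -200 and -190. G and C made up 37.2% (CXCL11) to 55.6% (CCL13) of the 8 stretches. All promoters were not matched to these genes on base composition, here or for the motifs below.

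The interferon element was rarer, in 3.07% of all promoters, and stood in 2 of the 8 genes. In CXCL10 it read GAAAGTGAAA at -221 to -212, and in CXCL9 it read GAAATGGAAA at -171 to -162. CXCL11 had no match in this stretch, which says only that these letters do not occur there. A match is a run of letters and was not tested for binding.

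TATAAA, the letters of a TATA box, stood in 6 of the 8 genes against 11.1% of all promoters. In 5 of them a match lay in the last 42 bases, a limit that just takes in the match of CXCL11 at -42 to -37. Those of CCL7, CCL8, CCL13 and CCL20 lay between -31 and -24. The match of CXCL9 lay at -191 to -186, far upstream of where a TATA box is known to act. In CCL7, CCL8 and CCL13, which encode ligands of CCR2 and other receptors on monocytes and related cells, TATAAA began 30, 30 and 31 bases before the start. The next lines give it in capitals with the bases on either side, to show how alike these 3 neighbours on the plus strand of chromosome 17 are (chr17:34270173-34270208, chr17:34319387-34319422 and chr17:34356431-34356466, GRCh38.p14).
CCL7: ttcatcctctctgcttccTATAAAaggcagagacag
CCL8: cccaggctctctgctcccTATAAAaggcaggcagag
CCL13: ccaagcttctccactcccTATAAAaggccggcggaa

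The lines are placed on TATAAA, so only the 30 bases outside it can differ. Of these, CCL8 shared 22 with CCL7 and 22 with CCL13, and CCL7 and CCL13 shared 16. Stretches of 697 other promoters with TATAAA within 40 bases of the start, placed in the same way, shared a median of 8 bases with each of the 3 genes. None of the 697 shared 22 or more with CCL7 or with CCL8, and 4 shared 16 or more with CCL7. The stretch of CCL20 shared 12 with CCL7, 8 with CCL8 and 6 with CCL13. Of the 697, 55, 401 and 595 shared at least as many with those genes, so only the 12 with CCL7 was well above the median. None of the 3 CC genes matched the NF-kB pattern or the interferon element in the 250 bases. AP-1 (TGANTCA) was found in 2 of the 8 genes, at -51 to -45 in CCL7 and at -87 to -81 in CXCL11, against 6.6% of all promoters. C/EBP (TTNNGNAA) was found in CCL1 and, with 5 matches counted on both strands, in CXCL10, against 33.6% of all promoters. The 5 matches are not separate places. The one at -171 to -164 was counted once on each strand, and those at -226 to -219 and -225 to -218 overlap. The CCL1 match and that of CXCL10 at -171 to -164 overlap an NF-kB match.

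**Figure D1:**
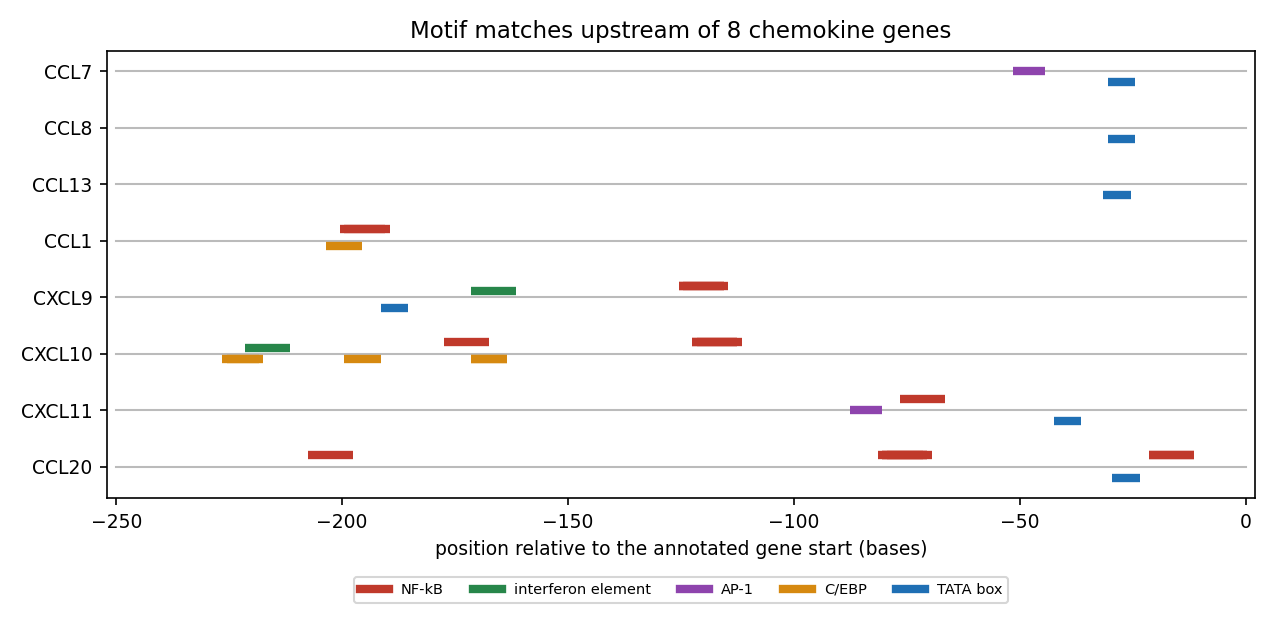
Motif matches in the 250 bases before the annotated start of 8 chemokine genes; the horizontal axis is the position relative to the start in bases, each grey line is 1 gene and each coloured bar a match on either strand. The TATA box of CCL7, CCL8, CCL13 and CCL20 lies at about the same place, from -31 to -24, and the interferon element appears only in CXCL9 and CXCL10 among these 8.

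The CC cluster on chromosome 17 held no HMGB2 region of either list. Its 6 genes encode the CCR2 ligands CCL2, CCL7, CCL8 and CCL13, the eosinophil attractant CCL11, which acts through CCR3, and CCL1. The count of 0 narrow regions in 120 kb allows up to 25.0 regions per Mb (3 counts), and the same limit holds for the count of 0 broad regions. The narrow regions averaged 0.925 per Mb over chromosomes 1 to 22 and X, so a window of this length is too short for its 0 to differ from the genome. Of 25133 stretches of the same length laid end to end along these chromosomes, 10.3% held a narrow region, 1.31% a broad region and 0.159% a broad region over the smallest width of 500 bp. An empty window was thus the usual case, in both lists.

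The nearest narrow region to the CC cluster lay 363 kb below the window, from 32212023 to 32212287 of chromosome 17, at place 820 of 2792 in the list. On the other side the nearest narrow region was 2.18 Mb away, from 34871707 to 34871971. The distance of 363 kb was close to the middle of the same-length stretches, whose median distance was 353 kb, and 49.2% of them lay as far or farther from a narrow region. In the gene table of GRCh38.p14, CCL2 is the lowest and CCL1 the highest of the 6 genes along the chromosome, with ASIC2 as the next protein-coding gene below CCL2 and TMEM132E above CCL1. Whether the narrow region at 363 kb lies in ASIC2 or between genes was not determined, since no hg19 annotation was used here.

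Broad regions were farther from the CC cluster. The nearest was 5.48 Mb above the window, from 38173682 to 38175908 of chromosome 17, with a width of 2226 bp, and was listed as number 11 of 364. It was also the nearest of those wider than 500 bp. Below the window the nearest broad region, of 500 bp, was 5.52 Mb away, from 27052525 to 27053025, and was listed last. The window thus lay in a stretch of 11.1 Mb without a broad region, the second longest of 14 gaps between broad regions on chromosome 17, where the median gap was 4.4 Mb. Of all stretches of the same length, 33.8% were as far or farther from a broad region, but on chromosome 17 alone the share was 10.8%. Chromosome 17 as a whole had 0.185 broad regions per Mb, above the 0.121 of all chromosomes together, and 0.715 narrow regions per Mb, below the 0.925.

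The CXCR3 ligand cluster on chromosome 4 held 1 narrow region and no broad region. CXCL9, CXCL10 and CXCL11 all signal through CXCR3, a receptor of activated T cells and natural killer cells. The region spanned 264 bp, as all narrow regions do, from 76959846 to 76960110 of chromosome 4 in hg19. It lay 44.8 kb above the lower edge of the window and 4.89 kb below the upper edge, at 90.0% of the window's length. In the gene table of GRCh38.p14 the order by lowest base position is CXCL9, ART3, CXCL10, CXCL11 and then NUP54. This order does not show where a gene ends, so ART3 is not shown to stop before CXCL10. CXCL11 is the last of the 3 ligand genes, so the region sits on the CXCL11 side of the window. Whether the region lies within a gene or between genes was not determined. All 3 ligand genes are on the minus strand, and the upper side of each is therefore its upstream side. How many bases separate the region from the start of CXCL11 was not measured, for want of an hg19 annotation, and the promoter sequences shown above are not claimed to fall in it.

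One narrow region in 50 kb is 20.0 per Mb, with an exact Poisson 95% interval of 0.506 to 111 that covers counting error only. The lower bound lies below the average of 0.925 per Mb, so the density of the window was not distinguishable from that of the genome. Of 60334 same-length stretches, 4.48% held a narrow region, 0.557% a broad region and 0.0713% one over 500 bp. The region stood alone, with its nearest narrow neighbour 721 kb away. The median distance between nearest narrow neighbours was 319 kb, and 22.9% of narrow regions were as isolated or more so.

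The nearest broad region to the CXCR3 ligand window lay 1.64 Mb above it, from 78602843 to 78603343, and had the smallest width of 500 bp. Of the same-length stretches, 71.0% were as far or farther from a broad region. The narrow region in the window was 1.64 Mb from it too, and 67.4% of narrow regions were at least that far from a broad one. On the lower side the nearest broad region was 1.95 Mb away and belonged to a run of 4 regions over 500 bp. This run spanned 356 kb, from 74606793 to 74962673, and was the nearest place on chromosome 4 with broad regions wider than 500 bp. Its members were 3788, 1462, 1484 and 636 bp wide, at 2.3, 2.18, 2.05 and 1.95 Mb from the window, and all 4 narrow regions of the run lay in the first 3 of them. These 4 were the only regions over 500 bp on the chromosome.

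CXCL8, CXCL6, CXCL1, CXCL5, CXCL3 and CXCL2, whose products attract neutrophils, precede CXCL9 on chromosome 4 in the gene table of GRCh38.p14, as do the platelet chemokine genes PF4, PF4V1 and PPBP among them, with 15 other protein-coding genes between CXCL2 and CXCL9. The run of wide regions was therefore on the side of the CXCR3 ligand window where these CXC genes lie, but at which of them each region stood was not determined. The run had 11.2 regions over 500 bp per Mb. It was delimited by those regions, so its density is a description, to which no counting interval applies. The CXCR3 ligand window had 0 in 50 kb, which allows up to 60.0 per Mb, and all 3 chemokine windows together had 0 in 190 kb, which allows up to 15.8 per Mb. Both limits exceed 11.2 per Mb, so windows of this length could not show a density below that of the run.

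**Figure D2:**
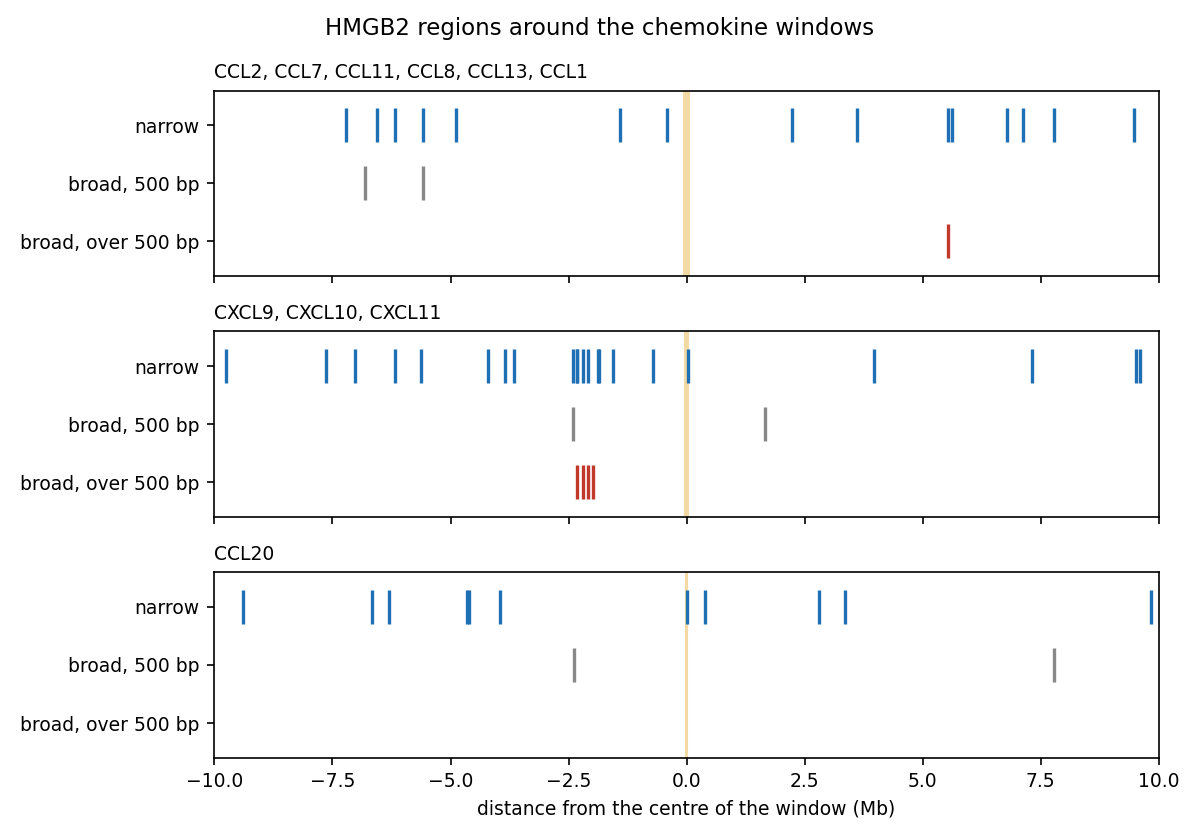
HMGB2 regions within 10 Mb of the centre of each window (shaded, to scale); the horizontal axis is the distance from the centre in Mb, negative below the window, and each tick is 1 region of the narrow list, of the broad list at 500 bp, or of the broad list above 500 bp. No broad region falls in a window, 1 narrow region falls in each of the lower 2 windows, and the 4 wide regions of chromosome 4 lie 1.95 to 2.3 Mb below the CXCR3 ligand window.

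The CCL20 window on chromosome 2 also held 1 narrow region and no broad region. CCL20 is the chemokine ligand of CCR6 and is known to be induced by NF-kB. The narrow region ran from 228687670 to 228687934 in hg19, 17.7 kb above the lower edge of the window and 2.07 kb below the upper edge, at 89.0% of its length. In GRCh38.p14 the gene is on the plus strand with DAW1 as the next protein-coding gene above, so the region sits toward the downstream side of the window. Its distance from CCL20 itself was not measured. The window is short, and 1 region in 20 kb, or 50.0 per Mb, has an exact Poisson 95% interval of 1.27 to 279. Among 150856 same-length stretches, 1.85% held a narrow region, 0.237% a broad region and 0.0325% one over 500 bp. The lower bound of 1.27 is above the 0.925 per Mb of the genome. However, this was 1 of 6 counts (3 windows and 2 lists) and rests on 1 region. The window was also placed with earlier results of these data known. The 3 windows together had 2 narrow regions in 190 kb, or 10.5 per Mb, with an interval of 1.27 to 38.0. That lower bound is also above 0.925, but all 3 windows were placed in this way, and the difference was not tested.

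Around CCL20 the next narrow region was 376 kb away from the one in the window, and 44.8% of narrow regions were as isolated or more so. The nearest broad region lay 2.38 Mb below the window, from 226285536 to 226286036, and had a width of 500 bp. Above the window the nearest was 7.77 Mb away. Of the same-length stretches, 61.3% were as far or farther from a broad region. Chromosome 2 had 2 regions over 500 bp, next to each other (113586040 to 113592180 and 113592975 to 113593857), and the nearer lay 115 Mb below CCL20. Of the stretches on chromosomes with such a region, 1.97% were as far or farther, and of those on chromosome 2, 5.89%. Set beside the other windows, the distance to a region over 500 bp was 1.95 Mb for the CXCR3 ligands, 5.48 Mb for the CC cluster and 115 Mb for CCL20, against a median of 24.4 Mb at each length over stretches on chromosomes with such a region. The CXCR3 ligand and CC windows lay closer than most of these stretches, of which 93.5% (97.7% on chromosome 4) and 83.8% (44.4% on chromosome 17) were as far or farther. Differences between the windows were not tested, since each window gives 1 distance per list.

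**Figure D3:**
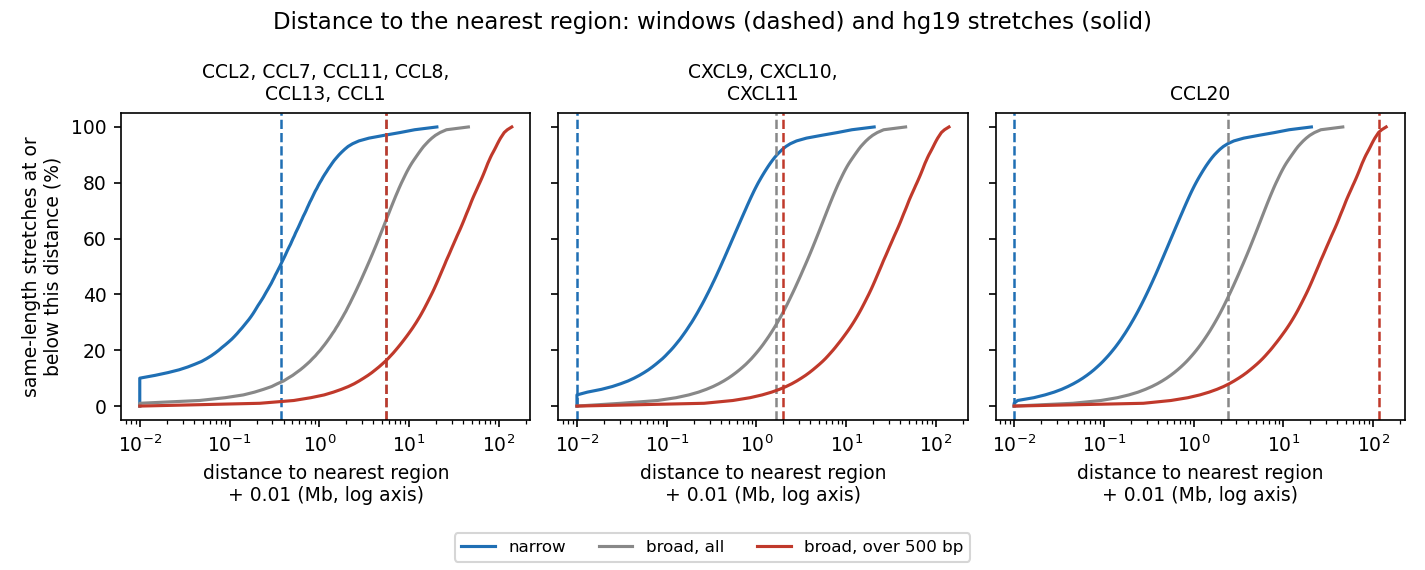
Cumulative share of same-length hg19 stretches (vertical axis, percent) by distance to their nearest region (horizontal axis, Mb plus 0.01, log axis), for narrow, all broad and broad regions over 500 bp, with dashed lines at the distance of each chemokine window. Curves for regions over 500 bp use only chromosomes that have one. The narrow line of the CC cluster crosses near the middle, at 363 kb, the broad and over 500 bp lines coincide at 5.48 Mb there, and the over 500 bp line of CCL20 lies at the far end, at 115 Mb.

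The 2 narrow regions stood at places 929 (CCL20 window) and 1462 (CXCR3 ligand window) of the 2792 in the narrow list, and neither overlapped a broad region. Only 101 narrow regions (3.62%) did so. The list is ordered in 28 blocks, each of which runs upward through the chromosomes and their positions, and 90.0% of neighbouring entries share a chromosome. The CCL20 region belongs to the block from place 866 to 1321 with 456 entries, and the CXCR3 ligand region to the block from 1322 to 1856 with 535 entries. Each of these blocks held 1 narrow region that overlapped a broad one. Within a block the place follows the chromosome number, so only the block, not the exact place, can separate these entries from others. Neither labels nor file headers say what the blocks rank, if anything. The narrow region nearest the CC cluster was in the block before, from 599 to 865, which held 9 such overlaps among 267 entries.

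**Figure D4:**
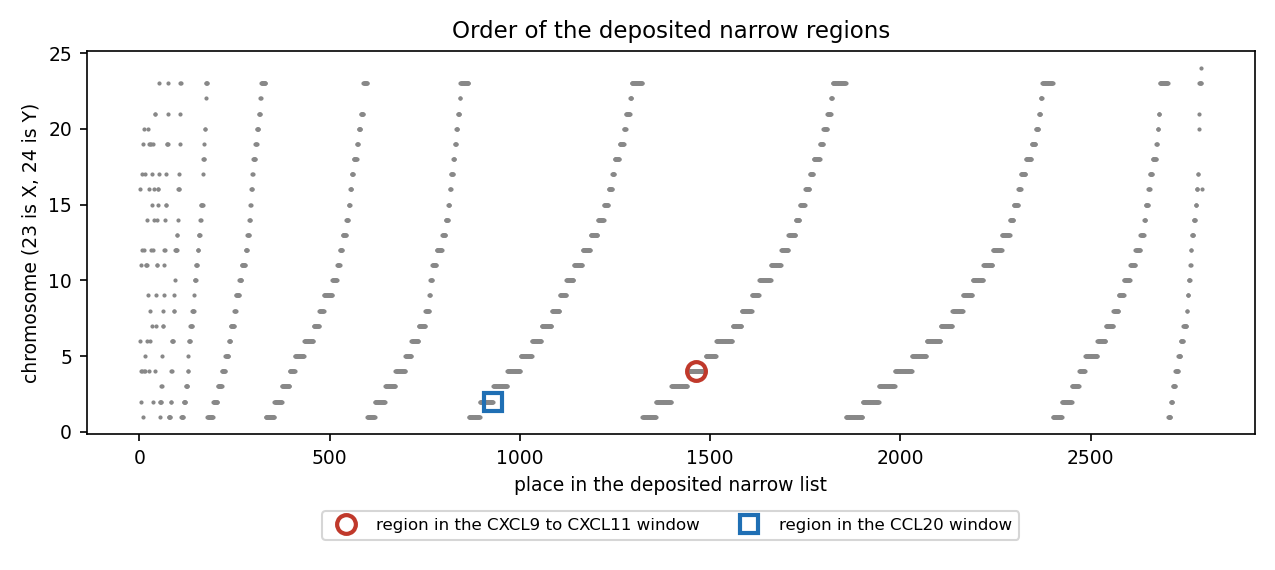
Place of each narrow region in the deposited list (horizontal axis) against its chromosome (vertical axis, 23 for X and 24 for Y); each grey point is 1 region. The list climbs through the chromosomes again and again, and the regions of the CCL20 window (square, place 929) and the CXCR3 ligand window (circle, place 1462) lie in 2 neighbouring blocks of 456 and 535 entries.

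The lists report called regions and carry no read count, so signal below the threshold the authors set would leave a window empty here, and the depth of each library is unknown. With 1 library for each condition, no count here has a replicate check.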

How the data were processed

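HMGB2 was measured by ChIP-seq in 1 senescent and 1 growing library, grouped by the cell condition in the labels. Bowtie 0.12.9, HOMER 1.0 and hg19 are named in the submitters' processing notes, with no role or order. Per the file headers, the 2 deposited lists hold an identifier with the chromosome and both base positions of each region, and no score. Peak settings and any input control: not given in the sources used here. Depth is unknown.

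Windows, members and gene lists were chosen with earlier results of these data known. All 10 genes are named. Overlap was at least 1 bp, distance was edge to edge, and same-length stretches were laid from each chromosome's start to the last deposited region, assembly gaps included. Intervals are exact Poisson 95%, and limits for a count of 0 use 3 counts. Counting and distances were checked on simulated regions. Motifs were sought in 250 bases before RefSeq starts (GRCh38.p14), and no coordinates were converted. The planned results by chromosome band and protein cysteine pattern were not run, because a band table and protein sequences were not used here. Tools were Python 3.11.15 with scipy 1.17.1, pandas 2.3.3, matplotlib 3.10.9 and numpy 2.4.6.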

Additional observations from a re-analysis of the deposited data

How the results depend on the processing

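Of 66 alternative values, 54 stayed within 1.5 times the reported one and 12 did not. Some of the 54 could not have moved, such as a count of 0 under a setting that only drops regions. With windows extended by 500 kb on both sides, the CC cluster gained its first narrow region (1) and CCL20 had 2. With only the first 1396 narrow and 182 broad regions as listed, the CXCR3 ligand window had 0 narrow regions and the nearest was 676 kb away, while the nearest broad region to CCL20 lay at 68400 kb. Place 1396 lies inside the block that holds the CXCR3 ligand region, so that loss follows the chromosome order. With only regions over 500 bp, CCL20 was 115000 kb from a broad region. With both lists together, the broad distances became 363 kb for the CC cluster and 0 for the other 2 windows, by construction. Midpoint to midpoint, the nearest narrow region was 20.0 kb from the CXCR3 ligand centre and 7.8 kb from that of CCL20, by construction. With only chromosome 17, 2.22% of stretches held a broad region. Counts of 0 broad regions stayed 0 in every alternative run. Only the extended windows could have raised them, since the other settings keep a part of the regions already counted. No paired analysis was possible because there is only 1 library per condition. Results by chromosome band were not run. What an empty window can show is limited by the unknown depth.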

Other observations

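The same motifs were counted upstream of the other chemokine ligand genes and of the chemokine receptor genes. Of 32 other ligand genes, among them CXCL8, CCL5 and CXCL12, 22 had a RefSeq promoter, and of 22 receptor genes 14 did. A TATA box stood in 8 of the 22 ligand promoters (36.4%) and in 1 of the 14 receptor promoters (7.14%), against 11.1% of all promoters. The NF-kB pattern stood in 11 ligand (50.0%) and 5 receptor promoters (35.7%), against 53.7% of all. The interferon element was in 0 of the ligand and 2 of the receptor promoters, against 3.07% of all, and AP-1 in 4 of the ligand and 1 of the receptor promoters, against 6.6%. The C/EBP pattern was in 9 ligand and 8 receptor promoters, against 33.6% of all. These shares describe letters in the reference, were not matched on base composition and were not tested.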
